A study of Mus musculus with 5 samples.

Results

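Phosphofructokinase and the PFKFB enzymes that control it were followed in pancreatic beta cells of transgenic mice, with and without induced p16INK4a. The 7 genes were chosen by symbol, as the 3 genes of the phosphofructokinase subunits (Pfkl, Pfkm and Pfkp) and the 4 genes of the PFKFB enzymes (Pfkfb1 to Pfkfb4), out of 23951 genes in the table. The study measured RNA-seq in 5 samples. The p16 group held 3 samples, with the genotype Ins-rtTA/tet-GFP/tet-p16ink4a. The GFP group held 2 control samples, with the genotype Ins-rtTA/tet-GFP. Mice of both groups thus carried the Ins-rtTA driver and the tet-GFP reporter and received tetracycline over 10 days, so that the groups differed by the tet-p16ink4a transgene. Cells with green fluorescence were then sorted from dissociated islets. The rtTA activator is driven by an insulin promoter, so the induced cells are those in which that promoter is active. The series text counts 3 such mice and 2 control mice, but the labels give no age and tie no sample to a mouse.

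Phosphofructokinase adds the second phosphate to fructose-6-phosphate and catalyses the committed step of glycolysis. It works as a tetramer of liver (Pfkl), muscle (Pfkm) and platelet (Pfkp) type subunits. The PFKFB enzymes both make and break down fructose-2,6-bisphosphate, a strong allosteric activator of phosphofructokinase, and their isoforms differ in the balance of kinase to phosphatase activity, with Pfkfb3 the most kinase-biased. In beta cells glycolytic flux sets the ATP signal for insulin release. p16INK4a blocks the cyclin D kinases, and cyclin D3 with Cdk6 is known to phosphorylate the platelet subunit of phosphofructokinase.

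Values are FPKM, a level scaled by transcript length and library size, with 1 value per group in the authors' deposited table. There are no values per sample, so no SD can be given, and the overlap of the samples of both groups cannot be seen. A gene counts as called where its q-value in the authors' deposited table was below 0.05. Those q-values cover 13264 tested genes, of which 573 were called higher with p16, or 4.32%, and 146 lower, or 1.1%. How the spread between the samples of a group entered the p-values is not known, and that spread may be technical in part. In bulk RNA, fewer cells of a type and less RNA per cell cannot be told apart. Cdkn2a, the gene of p16INK4a, stood at 0.657 FPKM in the GFP group and 34.6 FPKM in the p16 group, in the direction of the labels. Among 10 beta cell markers, Ins1, Ins2 and Iapp carried no estimate, listed at 0 in both groups for too many fragments, and of the 7 tested markers 3 had the higher value with p16 and 4 the lower, with 1 called lower, Slc2a2. The most abundant, G6pc2, a beta cell glucose phosphatase, stood at 3012 and 2327 FPKM and was not called.

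Of the 7 genes, Pfkfb3 rose and no other was called in the authors' deposited table. Pfkp, Pfkfb4 and Pfkfb2 were tested with values that differed between the groups but were not called, Pfkl and Pfkm had nearly equal values, and Pfkfb1 was not tested by the authors. Thus 1 of 6 tested members was called, beside 5.42% of all tested genes in either direction.

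RefSeq promoter windows of the called gene, Pfkfb3, and of Pfkfb4, the member with the next largest ratio, are shown because both genes are known targets of the hypoxia-inducible factors, whose binding core is ACGTG or GCGTG. Each window is the 250 bases before an annotated start, read 5′ to 3′ on the gene's strand in build GRCm38.p6, with every core on either strand in capitals. Pfkfb3 has 2 annotated starts and both lie on the minus strand of chromosome 2, at chr2:11502091-11502340 and chr2:11553930-11554179. The Pfkfb4 window lies on the plus strand at chr9:108991652-108991901.
Pfkfb3, first window: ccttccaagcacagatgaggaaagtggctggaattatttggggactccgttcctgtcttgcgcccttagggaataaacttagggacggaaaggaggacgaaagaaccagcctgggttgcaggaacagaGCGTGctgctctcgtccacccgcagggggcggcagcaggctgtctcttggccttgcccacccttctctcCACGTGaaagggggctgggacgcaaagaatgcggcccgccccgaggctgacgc
Pfkfb3, other window: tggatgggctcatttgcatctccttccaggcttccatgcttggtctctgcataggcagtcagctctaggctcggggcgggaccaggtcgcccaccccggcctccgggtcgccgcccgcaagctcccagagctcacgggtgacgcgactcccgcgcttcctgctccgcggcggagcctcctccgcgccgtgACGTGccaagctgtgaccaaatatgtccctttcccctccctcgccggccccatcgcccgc
Pfkfb4: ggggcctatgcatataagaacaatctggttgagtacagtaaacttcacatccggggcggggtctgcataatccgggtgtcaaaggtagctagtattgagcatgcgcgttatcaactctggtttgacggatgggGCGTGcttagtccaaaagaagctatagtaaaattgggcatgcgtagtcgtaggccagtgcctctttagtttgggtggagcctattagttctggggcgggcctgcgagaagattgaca
The first Pfkfb3 window held 3 cores, of which 2 overlap on opposite strands in the palindrome CACGTG. The other Pfkfb3 window and the Pfkfb4 window held 1 core each. The core is short and common: it was found in 41.5% of 27025 genes with such a window, and all 7 family genes had it in at least 1 window. By window, it was found in 12 of their 16, against 38.6% of all 32851 windows. Some windows overlap, and 1 core of Pfkm is counted in 2 of the 12. The 7 genes have more windows per gene than all genes do, so for every motif the shares of genes are not like for like. Members without a call, Pfkl and Pfkm among them, had it as well. The E2F motif TTTNGCGC, the AP-1 motif TGANTCA and the cyclic AMP element TGACGTCA, searched on both strands, were found in no window of the 7 genes, against 1.31%, 7.82% and 1.77% of all genes. The GC box GGGCGG was found in windows of 5 of the 7, against 35.4% of all genes. These are matches of letters, and the RNA values do not show which start was used.

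Pfkm and Pfkl were the most abundant phosphofructokinase genes and had the closest values between the groups. Pfkm, of the muscle type subunit, stood at 27.6 FPKM in the GFP group and 27.7 FPKM in the p16 group (authors' deposited table, q = 0.997). Pfkl, of the liver type subunit, stood at 20.83 FPKM in the GFP group and 20.81 FPKM in the p16 group (authors' deposited table, q = 0.999). Their log2 ratios of p16 over GFP were 0.0048 and -0.0010, and each sign flips under some scalings. A p that misses the threshold does not show equal expression, and without values per sample no interval of the difference can be given. In the authors' mm9 coordinates Pfkl lies at chromosome 10, 77449694 to 77472541. Pfkm is given at chromosome 15, 97869175 to 97962878, the same locus as Senp1, a SUMO protease gene at 4.02 and 3.82 FPKM. These coordinates are thus not of Pfkm alone, and whether any reads were split between these genes is not known.

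Pfkp, of the platelet type subunit, was the least abundant of the phosphofructokinase genes and stood at 7.25 FPKM in the GFP group and 12.7 FPKM in the p16 group, a ratio of 1.75 without a call (authors' deposited table, q = 0.408). Ratios at least this high were found in 9.82% of all tested genes, and in 6.35% of the 4775 tested genes whose mean FPKM was within 2-fold of that of Pfkp. Its locus at chromosome 13, 6547403 to 6648017, is shared with the metalloprotease gene Pitrm1, which stood at 20.6 FPKM in the GFP group and 15.3 FPKM in the p16 group (authors' deposited table, q = 0.590). The ratios of these genes, given the same locus, thus pointed in opposite directions, and the part that any split of reads has in either value was not tested.

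Because FPKM is per length, the subunit genes can be set side by side within a group. Summed over Pfkl, Pfkm and Pfkp, the level was 55.7 FPKM in the GFP group and 61.2 FPKM in the p16 group, a ratio of 1.10. Pfkm made up 49.6% of that sum with GFP and 45.2% with p16, and Pfkl 37.4% and 34.0%. The share of Pfkp was 13.0% with GFP and 20.8% with p16. The order Pfkm, Pfkl, Pfkp was the same in both groups, while the level of Pfkm was 3.81 times that of Pfkp with GFP and 2.18 times with p16. These shares rest on 1 value per group and have no test, and the gene behind them, Pfkp, was not called.

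Pfkfb3 encodes the PFKFB isoform that is strongly biased to making the activator and is known to be induced in growing and hypoxic cells. It stood at 2.04 FPKM in the GFP group and 5.32 FPKM in the p16 group, and so rose 2.61-fold, or 1.38 on the log2 scale (authors' deposited table, q = 0.00245). The smallest p in that table, 5e-05, was shared by 271 genes, Pfkfb3 among them. The p-value therefore does not rank Pfkfb3 within those genes. By size, 548 tested genes, or 4.13%, had a log2 ratio at least as high. Among the 3275 tested genes with a mean FPKM within 2-fold of that of Pfkfb3 the share was 2.93%, and 4.67% of these genes were called higher. Its mm9 locus at chromosome 2, 11393058 to 11475556, is shared with no other gene of the table. With a pseudocount of 5 FPKM the log2 ratio was 0.55, since the gene is low in both groups, and a filter on mean FPKM of at least 5 leaves it out of the test.

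**Figure D1:**
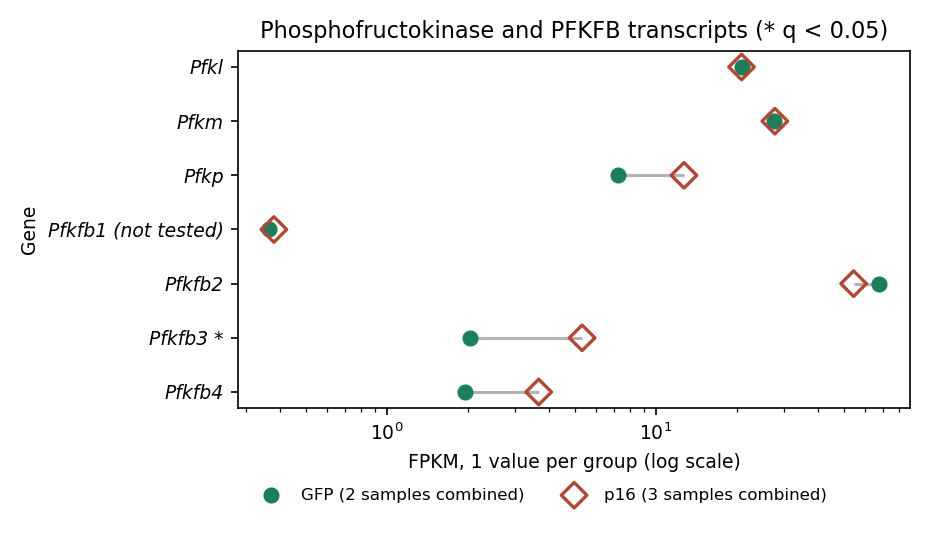
Level of each of the 7 genes in FPKM on a log axis, with a filled circle for the GFP group and an open diamond for the p16 group, each 1 value over all samples of the group, so there are no error bars. Pfkfb3, marked with a star for a q below 0.05, has the widest gap (2.04 and 5.32 FPKM), while the symbols of Pfkl and Pfkm lie on each other.

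Pfkfb4, known from testis and as a further hypoxia-induced isoform, had the next largest ratio. It stood at 1.96 FPKM in the GFP group and 3.67 FPKM in the p16 group, a ratio of 1.87, and was not called, with p = 0.0098 and q = 0.116 given for it by the authors' deposited table. In the GFP group Pfkfb4 and Pfkfb3 had like levels, with Pfkfb3 at 1.04 times Pfkfb4, and in the p16 group at 1.45 times. Whether the ratios of these 2 genes differ from each other was not tested. The mm9 locus of Pfkfb4, at chromosome 9, 108893947 to 108934739, is shared with no other gene of the table.

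Pfkfb2, the heart type isoform, was by far the most abundant of the PFKFB genes. It stood at 67.6 FPKM in the GFP group and 54.3 FPKM in the p16 group, a log2 ratio of -0.32, and was not called (authors' deposited table, q = 0.661). Its locus at chromosome 1, 132585620 to 132625830, is shared with Yod1, a deubiquitinase gene at 3.73 and 4.26 FPKM. Pfkfb1, the liver type isoform, was near the floor of the table at 0.364 FPKM in the GFP group and 0.380 FPKM in the p16 group and was not tested by the authors. It lies at chromosome X, 147024464 to 147078421.

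The PFKFB genes together stood at 71.97 FPKM in the GFP group and 63.7 FPKM in the p16 group. Pfkfb2 made up 93.9% of that sum with GFP and 85.3% with p16. The share of Pfkfb3 was 2.83% with GFP and 8.35% with p16, and that of Pfkfb4 was 2.72% and 5.76%. Pfkfb1 made up 0.506% and 0.597%. The order of levels, Pfkfb2, Pfkfb3, Pfkfb4 and Pfkfb1, held in both groups. Pfkfb2 exceeded Pfkfb3 by 33.2 times with GFP and by 10.2 times with p16, so that the called gene remained a minor part of PFKFB transcript in the p16 group. These are shares of RNA, not of enzyme.

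**Figure D2:**
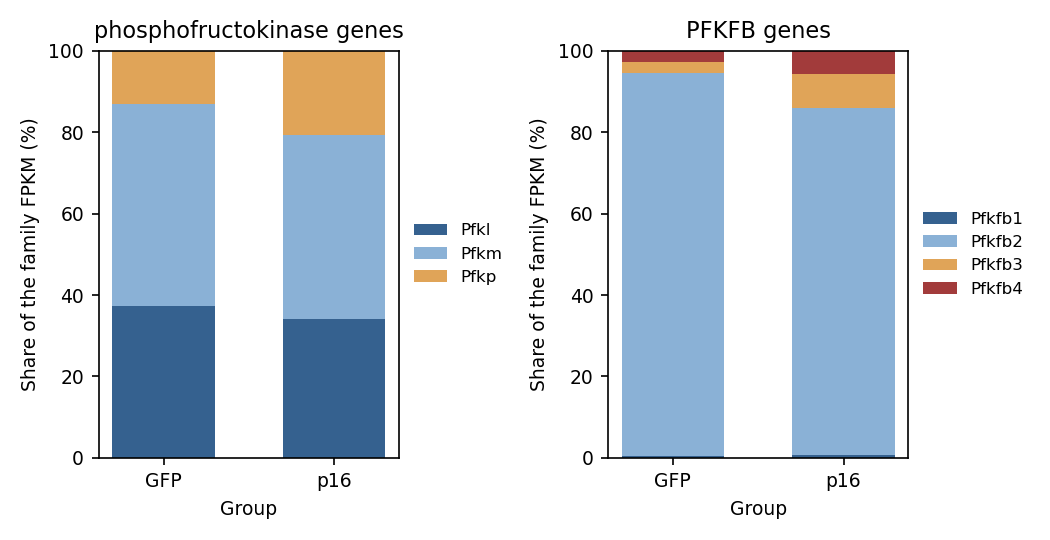
Stacked bars of the percent that each gene takes of the summed FPKM of its family, for phosphofructokinase genes and PFKFB genes, in the GFP and p16 groups (1 value per group, no error). The share of Pfkp was 13.0% with GFP and 20.8% with p16, and that of Pfkfb3 was 2.83% and 8.35%, while Pfkfb2 held 93.9% and 85.3%.

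In the authors' table the calls were related to transcript GC content. Over 5 bins of equal size by GC, the median log2 ratio was -0.31 in the lowest and 0.30 in the highest bin, and 1.67% and 8.33% of genes were called higher. Pfkfb3 has a GC content of 50.2% and falls in the middle bin, whose median was -0.04, where 4.48% were called higher. Relative to its bin the log2 ratio of Pfkfb3 was 1.43. Pfkp, at 48.0%, is in the same bin, and its ratio relative to it was 0.85. The GC content of Pfkp is that of a transcript of 8681 bases, against 3730 for Pfkl and 2879 for Pfkm. Whether that transcript is the one expressed is not known. Pfkl, at 57.1%, is in the highest bin, and relative to that bin its log2 ratio was -0.31. Pfkfb4 and Pfkm, at 54.8% and 54.7%, were at 0.80 and -0.11 relative to theirs, and Pfkfb2, at 45.6%, was at -0.13.

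**Figure D3:**
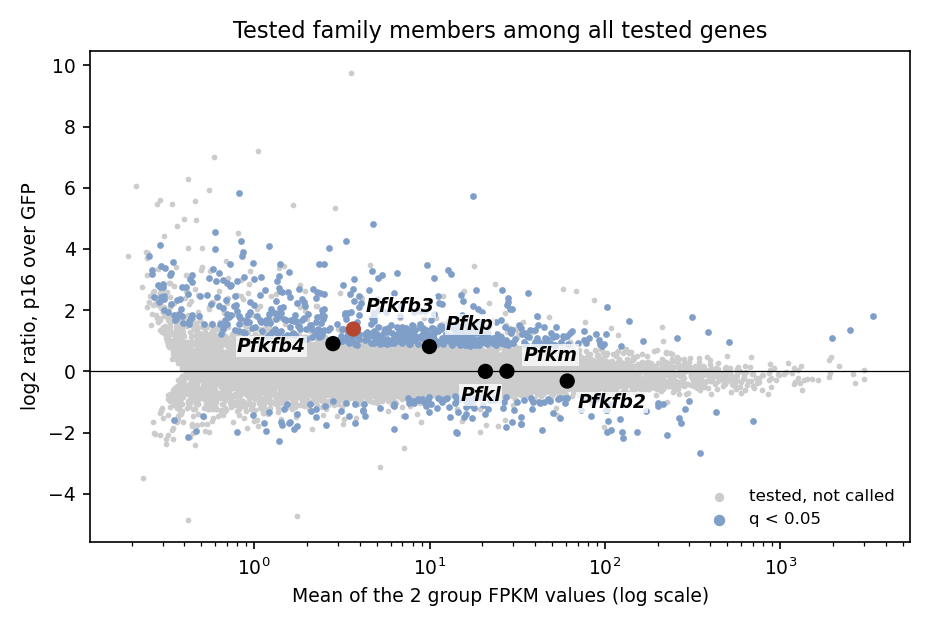
Log2 ratio of p16 over GFP against the mean of both group FPKM values (log axis) for 13174 tested genes, with 90 tested genes at 0 in a group not drawn; blue points are called at a q below 0.05, the red point is Pfkfb3 and black points are the tested members that were not called. Pfkfb3, at 1.38, lies among the blue points. Pfkfb4 and Pfkp lie above the zero line, with tested genes that were not called above them too, and Pfkl and Pfkm lie on the zero line.

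The enzymes around phosphofructokinase were read from 7 lists. Of their 74 tested genes, the authors' deposited table called 2 higher and 1 lower, or 4.05% against 5.42% of all tested genes, which is near the background. The median log2 ratio was -0.01 over these genes and -0.02 over all tested genes, with the p16 value above that of GFP for 36 genes and below it for 38.

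Upstream of phosphofructokinase, the transporter that brings glucose into beta cells was called lower. Slc2a2, the gene of the glucose transporter GLUT2, fell 1.96-fold, with 401.7 FPKM in GFP and 205.2 in p16 cells (authors' deposited table, q = 0.0242). Its GC content of 41.7% puts it in the lowest GC bin, which had a median log2 ratio of -0.31. That bin held 73 of the 146 genes called lower. The log2 ratio of Slc2a2 was -0.97, and the part of GC content in it was not tested. Slc2a1, the gene of GLUT1, stood at 7.91 and 13.4 FPKM and was not called (authors' deposited table, q = 0.117). Gpi1, the isomerase that supplies fructose phosphate, stood at 49.8 and 53.1 FPKM. The hexokinase genes Hk1, Hk2 and Hk3 were below 1 FPKM in both groups and were not tested. Of 3 tested genes in this list 1 was called lower and none higher, and its median log2 ratio was 0.09.

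Downstream, 1 of 15 tested genes of lower glycolysis was called higher and none lower, with a median log2 ratio of 0.09. Ldha, a lactate dehydrogenase gene that beta cells normally keep low, rose 3.82-fold, with 0.393 FPKM in GFP and 1.503 in p16 cells (authors' deposited table, q = 0.0275). It was below 1 FPKM in the GFP group, so the size of this fold rests on low values, and a filter on mean FPKM of at least 1 leaves it out of the test. The aldolase gene of high level, Aldoa, stood at 255.0 and 287.6 FPKM and the pyruvate kinase gene Pkm at 339.5 and 364.3 FPKM, and neither was called. Ldhb stood at 9.94 and 9.61 FPKM.

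Genes that oppose phosphofructokinase or remove its activator were not called. Fbp1, which encodes the bisphosphatase that reverses the phosphofructokinase step, stood at 32.0 FPKM in the GFP group and 37.2 FPKM in the p16 group (authors' deposited table, q = 0.771). Tigar, a phosphatase gene whose product acts on the activator and which the table lists as 9630033F20Rik, stood at 12.8 and 9.88 FPKM (authors' deposited table, q = 0.524). Summed phosphofructokinase FPKM was 1.74 times that of Fbp1 with GFP and 1.64 times with p16. Of the 7 tested genes of bisphosphatases and gluconeogenesis, none was called, and the median log2 ratio was 0.22. The pentose phosphate pathway, which drains the same hexose phosphates, had none called of 7, with a median of 0.11 and Taldo1 highest at 79.0 and 74.9 FPKM. Pyruvate and lactate handling had none called of 10, a median of -0.19, and Mpc1, a subunit of the mitochondrial pyruvate carrier, highest at 107.1 and 84.9 FPKM.

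Genes of the hypoxia response, read because Pfkfb3 and Pfkfb4 are known hypoxia targets, had none called of 14 tested, with a p16 value under the GFP value in 9. Their median log2 ratio was -0.10. Vegfa, the most abundant, stood at 153.2 FPKM in the GFP group and 123.4 FPKM in the p16 group (authors' deposited table, q = 0.628). The p16 value was above the GFP value in 5 of the 14. Egln3 had the largest ratio, at 0.0817 and 0.511 FPKM, low in both groups and not called (authors' deposited table, q = 0.0529). Among known regulators of phosphofructokinase and the PFKFB enzymes, 1 of 18 tested was called, with a list median of 0.17. This was Prkab2, a subunit gene of the energy-sensing kinase AMPK, which phosphorylates PFKFB isoforms. Prkab2 rose 2.14-fold, with 8.63 FPKM in GFP and 18.4 in p16 cells (authors' deposited table, q = 0.00441). None of the other AMPK subunit genes of the list was called. Prkab1 and Prkag2 had the higher value with p16, and Prkaa1, Prkaa2 and Prkag1 the lower. Fzr1, the activator of the ubiquitin ligase that marks the Pfkfb3 protein for decay, stood at 11.9 and 21.04 FPKM and was not called (authors' deposited table, q = 0.0668). Ccnd3, the cyclin D3 gene, stood at 17.7 and 23.4 FPKM (authors' deposited table, q = 0.648), and its kinase partner Cdk6 at 0.105 and 0.336 FPKM was not tested. Slc2a1, Hk1 to Hk3, Gpi1, Aldoa, Pkm, Ldhb, Fbp1, Tigar, Fzr1, Ccnd3 and Cdk6 were named for their roles after their values were seen. So were the AMPK subunit genes other than Prkab2.

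**Figure D4:**
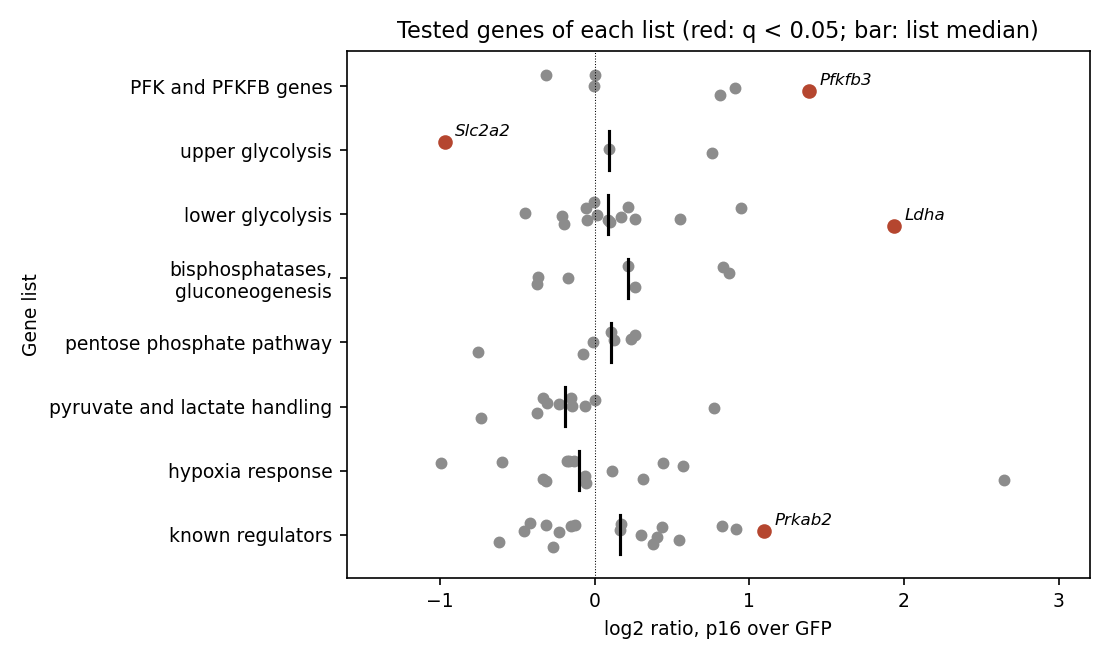
Log2 ratio of p16 over GFP for each tested gene of the phosphofructokinase and PFKFB families and of the 7 surrounding lists; points are genes spread vertically for legibility, red and labelled where the q was below 0.05, and bars are list medians (none is drawn for the 2 families). Besides Pfkfb3, the called genes were Slc2a2, Ldha and Prkab2, and the list medians lay between -0.19 and 0.22.

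Of the genes tested, the 3 with levels most like those of Pfkfb3, by distance on the log2 scale over the 2 group values, were Ccdc120 (2.10 and 5.32 FPKM), Pcsk4 (1.96 and 4.95 FPKM) and Phldb1 (2.02 and 4.85 FPKM). With only 2 values per gene, likeness means no more than like levels.

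Marker lists of several cell types differed between the groups as well, and their part in the rise of Pfkfb3 was not tested. Their calls stand beside 4.32% of all tested genes called higher and 1.1% called lower. Beta cell markers summed to 4742 FPKM in the GFP group and 3605 FPKM in the p16 group, without Ins1, Ins2 and Iapp, which carried no estimate. Most of that sum was G6pc2, at 3012 and 2327 FPKM, which was not called (authors' deposited table, q = 0.611). The median log2 ratio of the 7 tested beta cell markers was -0.37. The called marker, Slc2a2, is also a gene of the upper glycolysis list. Pdx1, Mafa and Nkx6-1, with the higher value with p16, have a GC content of 55.7%, 65.0% and 59.0%, in the highest GC bin. Slc2a2, G6pc2, Slc30a8 and Ucn3, with the lower value, have 41.7%, 44.9%, 45.3% and 51.2%. Stellate cell and fibroblast markers summed to 0.584 FPKM in the GFP group and 4.87 FPKM in the p16 group over 8 genes. Of these, only 2 were tested, Col1a2 and Dcn, and both were called higher, while 6 were below 1 FPKM in both groups. Most of the p16 sum was Col1a2 and Dcn. Acta2 (0.0728 and 0.0149 FPKM) and Lum (0.045 and 0.00907 FPKM) had the lower value with p16 and were not tested. The other genes of this list had the higher value with p16. Delta and PP cell markers summed to 1866 and 3999 FPKM over 6 genes, all tested, of which 4 were called higher (Sst, Ppy, Pyy and Rbp4). The sorted cells thus held hormone transcripts of other islet cells in both groups. These 4 genes have a GC content of 55.6% to 57.3%, in the highest GC bin. In that bin the median log2 ratio was 0.30 and 8.33% of genes were called higher. Hhex (GC 51.7%, 1.70 and 1.83 FPKM) and Ghsr (GC 45.7%, 0.378 and 0.567 FPKM) were not called. The part of GC content in the marker ratios was not tested. Alpha cell markers summed to 2154 and 2770 FPKM over 5 genes, and none of the 4 tested was called. Acinar and duct cell markers summed to 31.2 and 44.7 FPKM over 10 genes. Of 9 tested, Sox9 and Spp1 were called higher and Krt19 lower. Endothelial markers, from cells in which Pfkfb3 is well known, summed to 3.10 and 3.64 FPKM over 8 genes, 7 of them below 1 FPKM in both groups. Only 1 of the 8, Esam, was tested, and it was not called. The genes not tested had ratios in both directions. Most of that sum was Esam, at 2.49 and 3.04 FPKM. Blood and immune cell markers summed to 7.80 and 7.55 FPKM over 7 genes, most of it Cd79a, at 7.41 and 5.50 FPKM. Cd3e was at 0 in both groups. Only Cd79a and Cd68 were tested, and Cd68 was called higher, from 0.229 to 1.95 FPKM (authors' deposited table, q = 0.0498). Lyz2 (0.0756 and 0.0327 FPKM), Itgam (0.0746 and 0.0335 FPKM) and Emr1 (0.00554 and 0 FPKM) had the lower value with p16. Ptprc (0.00329 and 0.0269 FPKM) had the higher. Muscle-type and neuronal markers summed to 28.4 and 30.2 FPKM over 7 genes, with Des at 0 in both groups and none called of 2 tested. Nearly all of that sum was Tubb3, at 27.4 and 29.2 FPKM.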

How the data were processed

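Per the submitters' processing notes, TopHat2, Cuffnorm and Cuffdiff were used for the reads of 5 samples, with mm9 as the build; their versions, the annotation, the scaling of libraries and the handling of strand were not given in the sources used. The authors' deposited table gives 1 FPKM value per group and gene, with a p-value and a q-value, and no counts, so depth per sample is unknown and no test beyond the authors' own could be run. The q-values deposited by the authors equalled Benjamini-Hochberg values over 13264 tested genes within 5.23e-07. Ratios were computed from FPKM without a pseudocount. The table counts starts from 0 (266 of 270 microRNA genes had the length this gives), so 1 was added to each. GC content came from the longest GENCODE M21 transcript (95.1% of tested genes matched). Promoters came from RefSeq on GRCm38.p6, a build other than mm9, and all 7 genes matched.

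The 7 genes, the lists and the rules were chosen with earlier results of these data known. Named genes were the 7 members, called members of each list or otherwise its most abundant gene, and the 3 genes nearest to a called member. Genes that share a member's locus (Senp1, Pitrm1 and Yod1), markers at 0 in both groups (Cd3e and Des) and the genes so marked in the text were named outside that rule, after their values were seen. So were Egln3 and the markers Pdx1, Mafa, Nkx6-1, Slc30a8, Ucn3, Hhex, Ghsr, Acta2, Lum, Cd79a, Lyz2, Itgam, Emr1 and Ptprc. Some genes of the lists are not reported here and stay out of the lists' counts. Alternatives covered pseudocounts, scaling, GC content, thresholds and filters on FPKM. The calculations, done in Python 3.11.15 (scipy 1.17.1, pandas 2.3.3, numpy 2.4.6; figures by matplotlib 3.10.9), were tested on simulated data.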

Additional observations from a re-analysis of the deposited data

How the results depend on the processing

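No paired analysis was possible because the table holds 1 value per group, and for the same reason leaving out each replicate and a replicate block could not be run. The log2 ratio of Pfkfb3 lay between 0.55 and 1.43 over 7 alternatives, that of Pfkfb4 between 0.32 and 0.92, that of Pfkp between 0.53 and 0.85 and that of Pfkfb2 between -0.34 and -0.13. A shift of over 1.5-fold arose only with a pseudocount of 5, which took Pfkfb3 to 0.55 and Pfkfb4 to 0.32. The signs of Pfkl (-0.31 to 0.02), Pfkm (-0.11 to 0.04) and Pfkfb1 (-0.10 to 0.08) depended on the scaling. Shares of Pfkp and Pfkfb2 moved by less than 1.5 times.

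Pfkfb3 was called at a q below 0.01, at a q below 0.1 and with p adjusted over genes of at least 1 FPKM (q = 0.00236 by Benjamini-Hochberg adjustment of the authors' p). With genes of at least 5 FPKM it was not tested, leaving 0 of the 7 genes called, 298 of all genes higher and 1 list gene higher. With Bonferroni adjustment 0 genes could pass, since the smallest p gives 0.663. At a q below 0.01, 311 genes were higher and 58 lower, with 1 and 0 of the 7 lists. At a q below 0.1, 272 were lower, and 7 and 2 list genes were higher and lower. Slc2a2 and Ldha were not called at a q below 0.01. Ldha was left out by the filter of at least 1 FPKM, which left 1 list gene higher. Low FPKM and unknown depth limit the values of Pfkfb1, Pfkfb3, Pfkfb4 and Ldha.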
